A study of Arabidopsis thaliana with 6 samples.

Results

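The 46 genes described here form the core of the Arabidopsis cell cycle machinery. They were chosen by locus for the role of their products, and the rule uses no measured value. Members, role groups and further lists were, however, chosen with earlier results of these data known. All 46 are among the 32833 genes of the count table. They comprise 8 D-type cyclins, 7 A-type cyclins, 8 B-type cyclins, 5 cyclin-dependent kinases of the CDKA and CDKB classes, 7 KRP kinase inhibitors, SIM and SMR1, WEE1, the E2F factors E2FA, E2FB and E2FC with RBR1, CDC6, KNOLLE and the activators CCS52A1 and CCS52A2. The roots came from Arabidopsis thaliana Col-0 wild type seedlings at 3 days after germination. One group of 3 samples had been incubated for 1 h in liquid half-strength Murashige and Skoog medium that held the auxin indole-3-acetic acid (IAA) at 1 µM. The other group of 3 samples had been incubated for 1 h in that medium without IAA (mock). Each sample was a pool of about 100 roots, so a value is an average over dividing cells of the root tip and the many non-dividing cells behind it.

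Plant cells enter the cycle when D-type cyclins with the kinase CDKA;1 phosphorylate RBR1, the retinoblastoma-related repressor, and so free E2F factors to switch on genes of DNA replication. Later A-type and B-type cyclins with CDKB kinases drive the passage from G2 into mitosis, while KRP and SIM-type proteins hold the kinases in check and CCS52A proteins steer mitotic cyclins to destruction. Auxin is known to trigger the divisions of pericycle cells that start a lateral root, and KRP2 is known as an inhibitor of that step. Transcripts of B-type cyclins are present mainly in cells close to or in mitosis, so their level in a whole root depends both on how many cells divide and on how much RNA each one holds, and fewer cells of a type and less RNA per cell cannot be told apart here.

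The measurements were read counts per gene from RNA sequencing of ribosomal-RNA-depleted libraries, with 20808439 to 20984444 counts per library. Levels are given as CPM, counts per 1e+06 after scaling each library total by the TMM method of edgeR. The response to the hormone was present in every IAA library: GH3.3, an auxin-conjugating enzyme gene, stood at 985 ± 66.8 CPM in IAA roots and 5.25 ± 1.05 CPM in mock roots (SD, n = 3 each). Libraries differed in the share of counts from 9 photosynthesis genes used as markers of green tissue. This share was 0.0919% in IAA library 2, 0.179% in mock library 1 and 0.265% in mock library 3, against 0.0214% to 0.0224% in IAA libraries 1 and 3 and mock library 2. Of 8 root marker genes all were detected in every library. The labels do not say whether samples were grown separately, so p-values measure the spread between these samples only.

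No core cell cycle gene passed the test after 1 h of IAA. All 46 passed the filter on low counts, and of these 0 rose and 0 fell at an adjusted p under 0.05 (edgeR's quasi-likelihood test, Benjamini-Hochberg adjustment over 19778 genes), while 3.24% of all genes tested were called higher and 0.991% lower. With no adjustment, 0 members were higher and 11 lower at p under 0.05, against 9.88% and 7.57% of all genes. DESeq2 called 0 members higher and 2 lower, CYCD1;1 and KRP2, against 4.89% and 2.49% of the 22207 genes it gave an adjusted p, and limma-voom called 0. Mean levels were nevertheless mostly below mock: the fitted log2 change (IAA over mock) was negative for 34 of 46 members, with a median of -0.16, compared with 51.7% of all genes and a median of -0.01. In 13 members (28.3%) each IAA library lay below each mock library, a pattern seen in 9.83% of all genes tested. The opposite pattern, each IAA library above each mock library, was found in 0 members and in 12.3% of all genes.

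The precision was high enough to bound most of these differences. The 95% interval of the fold change, taken gene by gene with no correction for the number of genes, lay inside a 2-fold change in either direction for 42 members and inside a 1.5-fold change for 28. The members with wider intervals were KRP1, KRP2, KRP7 and CYCD6;1. Of these KRP1, KRP7 and CYCD6;1 had fewer than 4 CPM in every library.

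**Figure D1:**
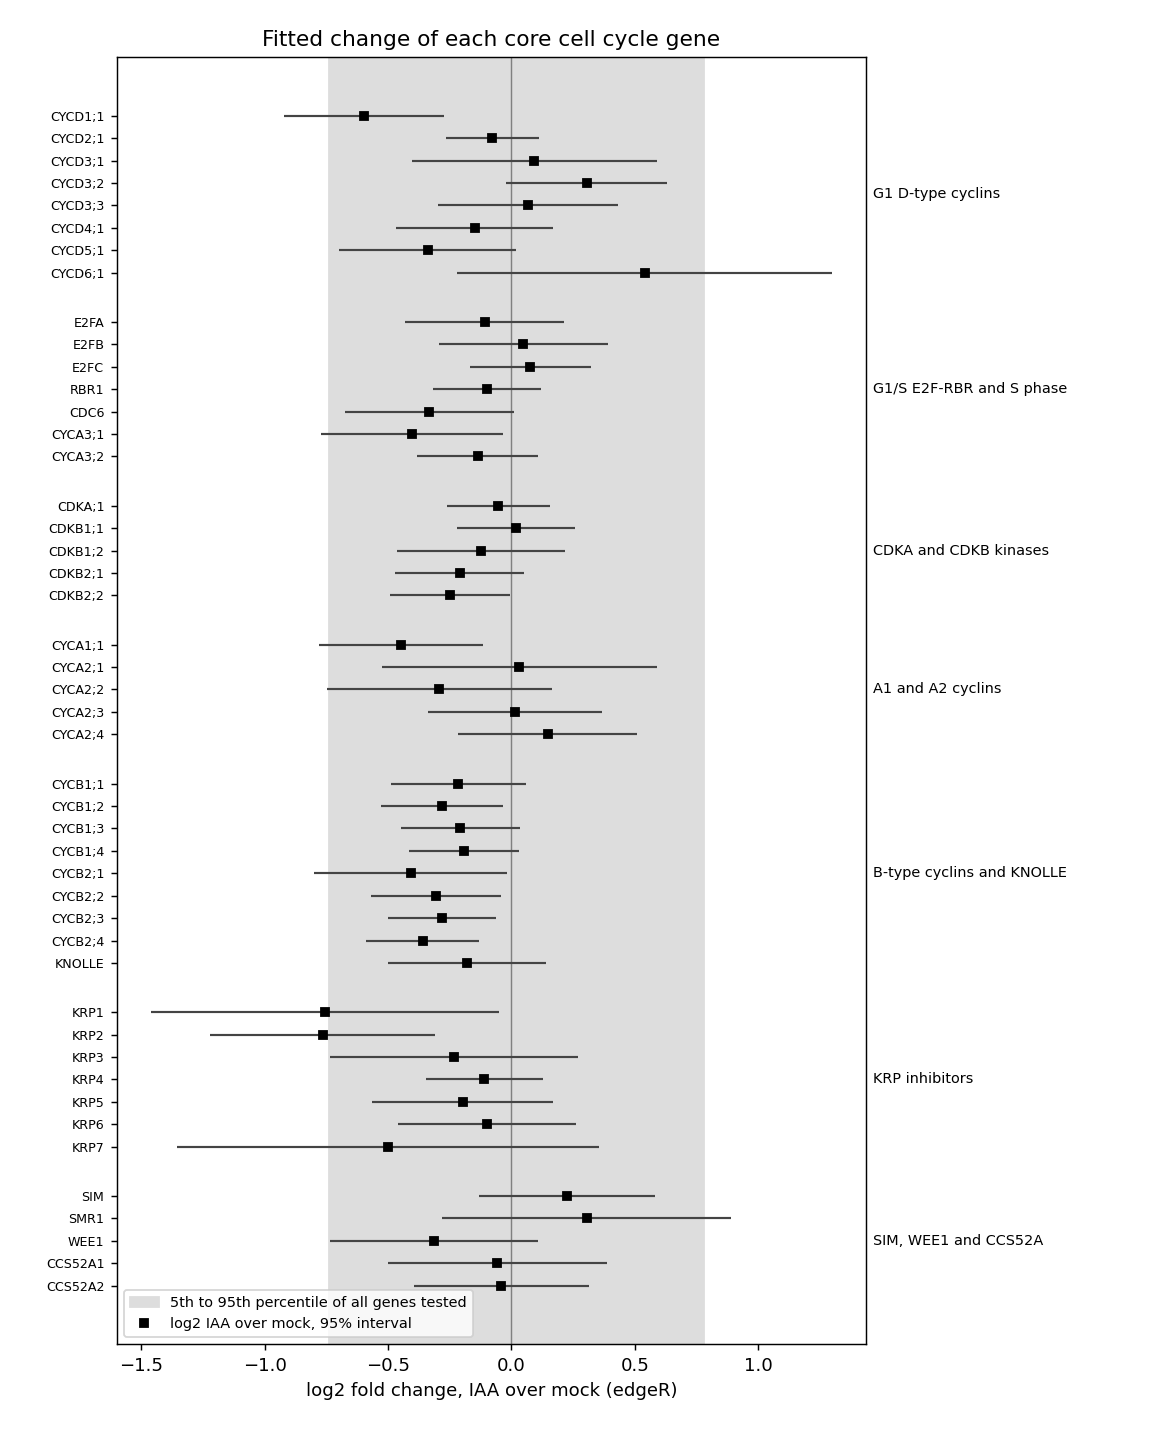
Fitted log2 fold change, IAA over mock, of each of the 46 core cell cycle genes (squares) with its 95% interval (lines), by role group, over a grey band that spans the 5th to the 95th percentile of all genes tested. All squares of the B-type cyclin group and of the KRP group lie left of 0, and the intervals are widest for the weakly expressed KRP7 and CYCD6;1.

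D-type cyclins read growth and hormone signals at the entry into the cycle. CYCD1;1 (AT1G70210) had the smallest p of all members and stood at 24.1, 25.3 and 27.2 CPM in the IAA libraries, against 45.4, 38.6 and 32.0 CPM in the mock libraries. The IAA values lay close together and below the lowest mock value, and the mock values were spread widely. The fitted change was -0.60 on the log2 scale (SE 0.14, 95% interval -0.92 to -0.27), a ratio of 0.661, with an adjusted p = 0.0612 in edgeR. In the authors' deposited table CYCD1;1 had a log2 change of -0.60 and an adjusted p = 0.00994. Without mock library 3, the lowest of the mock values, edgeR called it lower with an adjusted p = 0.0273.

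CYCD3;2, a member of the CYCD3 trio that promotes division in young organs, leaned the other way. It had 46.4, 47.2 and 57.3 CPM in the IAA libraries and 35.8, 38.5 and 47.8 CPM in the mock libraries, so 2 of 3 IAA values lay below the highest mock value (log2 change 0.30, 95% interval -0.02 to 0.63, edgeR adjusted p = 0.316). Its relatives CYCD3;1 and CYCD3;3 had log2 changes of 0.09 and 0.07, and both groups overlapped. CYCD3;1 had 17.8, 14.1 and 9.69 CPM in IAA libraries, spread to both sides of the mock values of 13.7, 11.9 and 13.4 CPM. It overlaps the same-strand gene AT4G34150 over 40 bases, which stood at 55.5 ± 11.96 CPM in IAA roots and 31.2 ± 4.71 CPM in mock roots.

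CYCD2;1 (AT2G22490) was among the steadiest, at 46.3, 46.4 and 47.7 CPM in IAA libraries and 47.7, 49.7 and 50.7 CPM in mock libraries, with a 95% interval of the log2 change of -0.26 to 0.11. CYCD4;1 had a log2 change of -0.15 with overlapping groups. CYCD5;1 had IAA values of 10.5, 8.26 and 8.31 CPM and mock values of 10.6, 12.8 and 10.9 CPM. These groups did not overlap, although IAA library 1 lay just below mock library 1, and the log2 change was -0.34 (edgeR adjusted p = 0.314). CYCD6;1, a cyclin of the formative divisions that build the ground tissue, had the largest positive log2 change of the set, 0.54 (SE 0.33, 95% interval -0.22 to 1.299). Its level was the lowest of all members, at 20, 22 and 14 counts in the IAA libraries and 12, 12 and 15 in the mock libraries, and IAA library 3 lay inside the mock range. CYCD6;1 also overlaps the opposite-strand gene AT4G03260 over 847 bases, which stood at 104 ± 7.98 CPM in IAA roots and 94.8 ± 9.42 CPM in mock roots. Whether counting used strand is not given in the sources used here, so reads of the pair may be assigned to either gene.

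**Figure D2:**
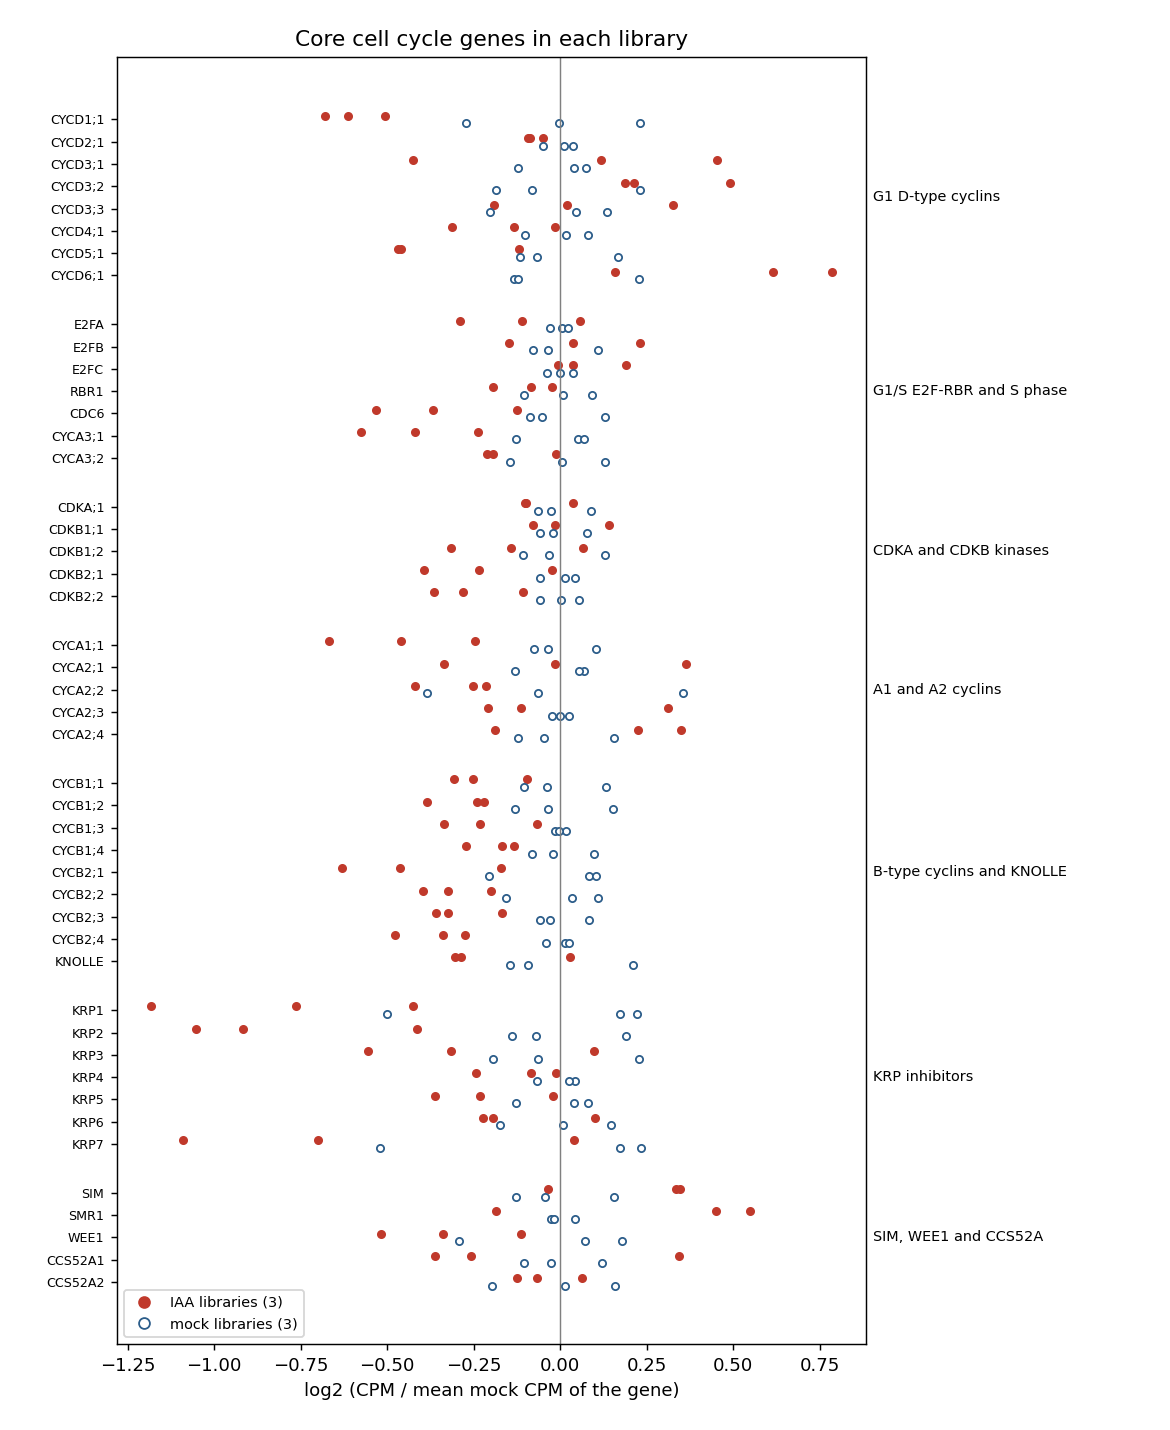
Level of each core cell cycle gene in each library as log2 of CPM over the gene's mean mock CPM, by role group, with the 3 IAA libraries as filled points set just above the 3 mock libraries as open points. The IAA points of the B-type cyclins lie mostly left of the mock points, while those of E2F, RBR1, CDKA;1 and CYCA2 genes are interleaved with them.

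Among the genes of the step into S phase, the E2F and RBR1 genes overlapped between groups. E2FA and E2FB, which activate replication genes, had log2 changes of -0.11 (95% interval -0.43 to 0.22) and 0.05 (-0.30 to 0.39). E2FC, known mainly as a repressor, had 0.08 (-0.17 to 0.32). E2FA had 8.18, 9.18 and 7.23 CPM in the IAA libraries, on both sides of the narrow mock range of 8.66 to 8.97 CPM. E2FB had 7.70 to 9.9998 CPM in IAA libraries and 8.07 to 9.19 CPM in mock libraries, so that the mock values lay inside the IAA range. E2FC, the most abundant of the 3, had 18.3, 20.3 and 17.8 CPM in IAA libraries and 17.8, 17.4 and 18.3 CPM in mock libraries. RBR1 stood at 53.0, 59.6 and 57.2 CPM in the IAA libraries and 60.9, 56.4 and 64.6 CPM in the mock libraries, and the groups overlapped. The interval of its log2 change ran from -0.32 to 0.12.

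The other members of this step lay lower in IAA roots without passing the test. CDC6, a loader of the replicative helicase at origins, had 8.79, 9.85 and 11.7 CPM in IAA libraries, each below the mock values of 11.96, 13.9 and 12.3 CPM (log2 change -0.33, SE 0.15, edgeR adjusted p = 0.302). CYCA3;1, a cyclin of the S phase, had 5.53, 4.88 and 4.38 CPM in IAA libraries and 6.75, 6.84 and 5.97 CPM in mock libraries, also without overlap (log2 change -0.40, SE 0.16, edgeR adjusted p = 0.245). The far more abundant CYCA3;2 overlapped between groups, at 57.4, 58.1 and 65.8 CPM in IAA libraries and 60.0, 72.5 and 66.6 CPM in mock libraries.

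Genes of the replication machinery outside the core set were also not called. Of 18 tested, among them the MCM helicase subunits, the PCNA clamps and the origin recognition complex, 0 rose and 0 fell in edgeR, with 0 higher and 2 lower with no adjustment (p under 0.05) and 0 calls in DESeq2 or limma-voom. Of all genes 7.57% were lower with no adjustment (p under 0.05) and 51.7% had a negative log2 change. The median log2 change of the 18 was -0.11, and 3 of 18 (16.7%) had non-overlapping groups with IAA lower, against 9.83% of all genes. The median was -0.03 without mock library 3, with 10 of 18 genes below mock in place of 15, and -0.06 without IAA library 1, with 11 of 18. It was -0.03 with the green tissue share as a term, with 11 of 18 below mock, and -0.07 without the 3 libraries of high share, with 13 of 18. The member with the largest change was CDT1B, a licensing factor, at 9.66 ± 1.07 CPM in IAA roots and 12.6 ± 1.82 CPM in mock roots (SD, n = 3 each, edgeR adjusted p = 0.257).

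CDKA;1 (AT3G48750), the kinase that serves the whole cycle, was the member with the highest level per length and one of the steadiest. It stood at 56.6, 56.8 and 62.3 CPM in the IAA libraries and 59.6, 58.1 and 64.6 CPM in the mock libraries, with a log2 change of -0.05 (95% interval -0.26 to 0.15). The groups overlapped. Of the plant-specific B-type kinases, CDKB1;1 and CDKB1;2 had log2 changes of 0.02 and -0.12, and CDKB2;1 and CDKB2;2 had -0.21 and -0.25. CDKB2;2, a kinase of the G2 to M step, had 22.9, 24.3 and 27.4 CPM in IAA libraries, each under the mock values of 29.6, 28.4 and 30.6 CPM (SE 0.10, edgeR adjusted p = 0.276). CDKB2;1 had 39.6, 44.1 and 51.1 CPM in IAA libraries and 53.5, 52.4 and 49.9 CPM in mock libraries, so that IAA library 3 lay inside the mock range. Whether the classes differ in their change was not tested.

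Among the A-type cyclins of G2, CYCA1;1, which acts close to mitosis, had 12.4, 9.28 and 10.7 CPM in the IAA libraries and 15.9, 14.4 and 14.0 CPM in the mock libraries, without overlap (log2 change -0.45, SE 0.14, edgeR adjusted p = 0.150). The 4 CYCA2 genes, whose products act with CDKB1 kinases to keep cells from entering endoreduplication, all overlapped between groups. Their log2 changes ran from -0.29 for CYCA2;2 to 0.15 for CYCA2;4. That of CYCA2;2 was -0.08 without mock library 1 and -0.45 without mock library 3. That of CYCA2;4 was 0.04 without IAA library 3 and 0.09 without mock library 1. It was 0.29 without IAA library 1 and 0.23 without mock library 3. All 4 genes missed the test, and the 95% interval of CYCA2;3 was -0.34 to 0.37. CYCA2;4, the most abundant, had 22.5, 30.0 and 32.7 CPM in IAA libraries and 23.5, 24.8 and 28.5 CPM in mock libraries, so that IAA values lay on both sides of the mock range. CYCA2;3 shares 48 bases with IAA5, an Aux/IAA gene of the opposite strand that stood at 25.2 ± 8.34 CPM in IAA roots and 0.0948 ± 0.00126 CPM in mock roots. CYCA2;3 itself had 22.2, 15.5 and 16.5 CPM in the IAA libraries and 17.9, 18.2 and 17.6 CPM in the mock libraries, with 2 IAA values below the mock range and IAA library 1 above it.

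The B-type cyclins and KNOLLE, the syntaxin of the forming cell plate, were the members most uniformly below mock. All 9 had a negative log2 change, against 51.7% of all genes, from -0.41 to -0.18 with a median of -0.28. In edgeR 0 fell, and DESeq2 and limma-voom called 0. With no adjustment 5 of 9 were lower (p under 0.05), against 7.57% of all genes. In 6 of 9 (66.7%) each IAA library lay below each mock library, against 9.83% of all genes. The summed level of the 9 genes was 249.5, 233 and 263 CPM in the IAA libraries and 294.5, 292 and 304 CPM in the mock libraries. The sums did not overlap, and their means stood in a ratio of 0.838. These genes rise and fall together through the cycle, so they are not independent of each other.

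CYCB2;4 had the smallest p of the group, with 23.0, 20.9 and 24.0 CPM in IAA libraries and 28.2, 29.3 and 29.5 CPM in mock libraries. The gap between the groups was larger than the spread within either (log2 change -0.36, SE 0.10, 95% interval -0.59 to -0.13, edgeR adjusted p = 0.0976). CYCB2;3 had 42.1, 41.1 and 46.9 CPM in IAA libraries and 51.6, 55.8 and 50.7 CPM in mock libraries (log2 change -0.28, SE 0.09, edgeR adjusted p = 0.169). CYCB2;2 had 23.1, 20.14 and 21.2 CPM in IAA libraries, just under the lowest of the mock values of 28.6, 27.1 and 23.8 CPM. CYCB2;1 had the largest log2 change of the group, -0.41, at 8.98, 6.52 and 7.33 CPM in IAA libraries and 10.7, 10.9 and 8.76 CPM in mock libraries. IAA library 1 lay above mock library 3.

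In the CYCB1 class CYCB1;2 had 41.5, 37.1 and 40.9 CPM in IAA libraries and 47.2, 44.2 and 53.7 CPM in mock libraries (log2 change -0.28, SE 0.11, edgeR adjusted p = 0.225). CYCB1;3 had 22.9, 24.6 and 27.5 CPM in IAA libraries and 29.2, 28.6 and 28.8 CPM in mock libraries, and the mock values lay close together. CYCB1;4 did not overlap either, with a log2 change of -0.19. CYCB1;1, the widely used marker of G2 to M cells in roots, had 17.7, 15.3 and 15.8 CPM in the IAA libraries and 18.4, 17.6 and 20.7 CPM in the mock libraries. Its highest IAA value exceeded its lowest mock value, and the log2 change was -0.22 (95% interval -0.49 to 0.06). KNOLLE was highest in library 3 of both groups, at 47.0 CPM in IAA and 53.3 CPM in mock, and its groups overlapped (log2 change -0.18). Without mock library 3 the change was -0.06, without IAA library 1 it was -0.12, and without IAA library 3 it was -0.29. KNOLLE overlaps the opposite-strand gene NPQ1 over 464 bases. NPQ1 stood at 7.25 ± 0.528 CPM in IAA roots and 10.6 ± 2.22 CPM in mock roots.

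**Figure D3:**
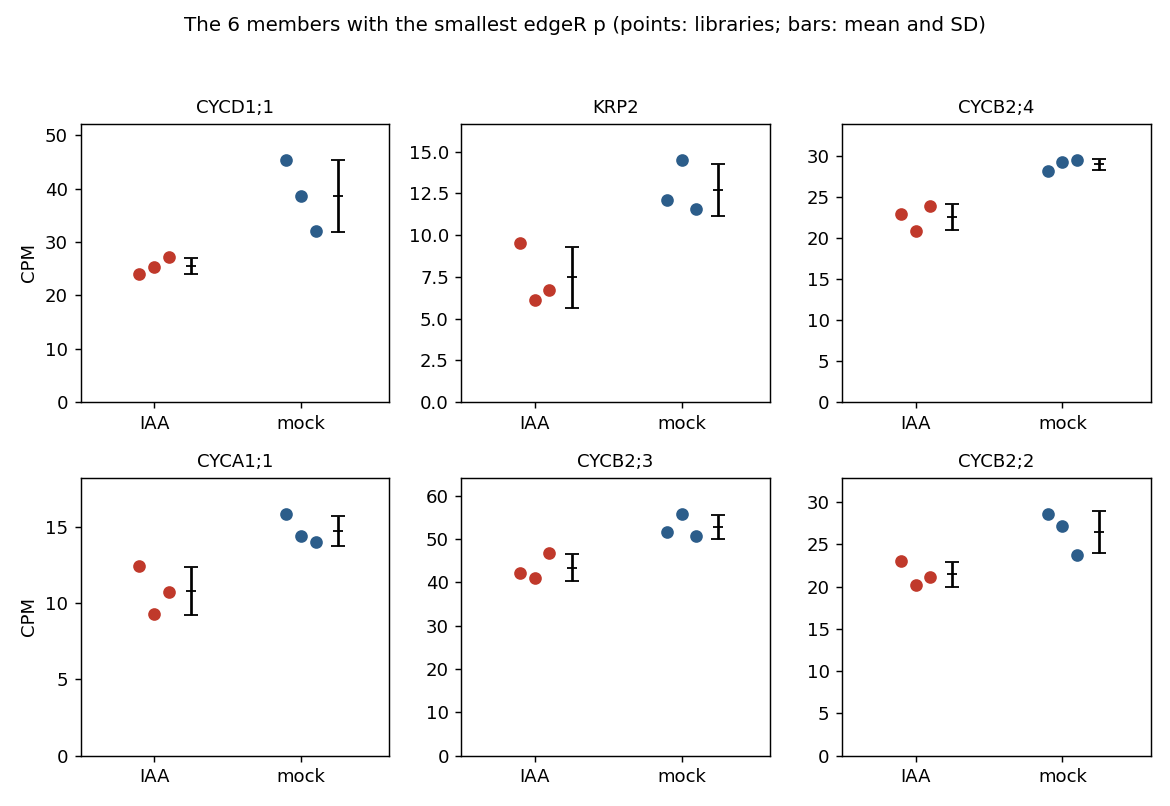
CPM in each library (points) with mean and SD (bars) for the 6 members with the smallest edgeR p, IAA at the left and mock at the right of each panel, axes from 0. The 3 IAA points lie below the 3 mock points in each panel, and the adjusted p runs from 0.0612 for CYCD1;1 to 0.218 for CYCB2;2.

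The lower level of this group in IAA roots was seen under each choice of scaling, and without the libraries rich in green tissue transcripts. The sign of the change was more stable than its size. With RLE size factors or library totals 9 of 9 genes were below mock and 6 of 9 did not overlap. With the green tissue share as a term in the fit the median log2 change was -0.24, again with 9 of 9 below mock. In the libraries of low share, IAA 1 and IAA 3 against mock 2, the summed level averaged 256 CPM in IAA and was 292 CPM in mock, and 9 of 9 genes had a negative log2 change with a median of -0.18. That last comparison has 1 mock library and a fit that called 0 genes of the whole table. Across the 15 alternatives the smallest log2 decrease of KNOLLE was -0.04, against the -0.18 given above. For the G2 to M marker of the CYCB1 class it was -0.07, against -0.22. With 1 library left out the smallest decreases of these genes were -0.06 and -0.14. For CYCB1;2 the smallest decrease across the alternatives was -0.10, against -0.28. For CYCB1;4 it was -0.13, against -0.19, and for CYCB1;3 it was -0.15, against -0.21. In the CYCB2 class the smallest decrease of any gene across the alternatives was -0.23.

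Promoters of mitotic genes commonly carry the MSA element, the binding site of MYB3R factors, with the core AACGG. Windows from 250 bases before to 50 bases after the annotated gene start were read from the RefSeq genome TAIR10.1 for 27443 protein-coding genes and searched on both strands, where the core reads CCGTT on the other strand. The core was present in 8 of 9 windows of the B-type cyclins and KNOLLE, in 21 of 46 windows of all members and in 24.7% of all windows. The exception in the group was CYCB2;4, the member with the smallest p among them. The windows of CYCB1;2 (chr5:1861654-1861953, minus strand), CYCB1;3 (chr3:3627224-3627523, minus strand) and CYCB2;3 (chr1:7137779-7138078, minus strand) are shown because they hold several copies at close spacing, and that of CYCB2;4 (chr1:28630740-28631039, minus strand) because it holds none. Sequences run 5′ to 3′ along the gene's strand and capitals mark AACGG or its reverse complement.
CYCB1;2: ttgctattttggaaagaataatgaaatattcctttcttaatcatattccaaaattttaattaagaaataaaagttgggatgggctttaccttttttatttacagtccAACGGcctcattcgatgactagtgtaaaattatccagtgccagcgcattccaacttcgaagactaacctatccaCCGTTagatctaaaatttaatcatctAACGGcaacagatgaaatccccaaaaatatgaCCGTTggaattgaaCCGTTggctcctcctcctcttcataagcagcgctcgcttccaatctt
CYCB1;3: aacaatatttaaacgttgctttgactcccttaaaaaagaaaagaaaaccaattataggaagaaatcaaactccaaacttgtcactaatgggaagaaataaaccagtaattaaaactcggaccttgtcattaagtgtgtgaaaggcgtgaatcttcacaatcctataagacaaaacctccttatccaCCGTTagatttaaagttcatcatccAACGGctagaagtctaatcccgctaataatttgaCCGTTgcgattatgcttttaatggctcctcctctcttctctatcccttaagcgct
CYCB2;3: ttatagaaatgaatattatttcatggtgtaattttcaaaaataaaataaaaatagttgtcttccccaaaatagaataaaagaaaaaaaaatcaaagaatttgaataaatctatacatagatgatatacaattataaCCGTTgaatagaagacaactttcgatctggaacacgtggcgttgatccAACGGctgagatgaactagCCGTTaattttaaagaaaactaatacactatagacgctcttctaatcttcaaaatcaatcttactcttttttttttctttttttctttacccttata
CYCB2;4: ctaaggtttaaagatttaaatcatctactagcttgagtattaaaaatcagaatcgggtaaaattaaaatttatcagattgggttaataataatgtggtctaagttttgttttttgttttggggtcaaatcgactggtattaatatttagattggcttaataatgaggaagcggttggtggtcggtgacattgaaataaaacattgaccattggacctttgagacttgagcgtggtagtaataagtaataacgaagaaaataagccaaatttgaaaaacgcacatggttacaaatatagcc
The CYCB1;2 window held 5 copies, starting at positions -143, -69, -43, -11 and 4, where -1 is the base before the annotated start and 1 is the first base of the gene. CYCB1;3 had 3 copies at -64, -39 and -5, and CYCB2;3 had 3 at -114, -66 and -47. A match describes these letters and is not a measured binding site.

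**Figure D4:**
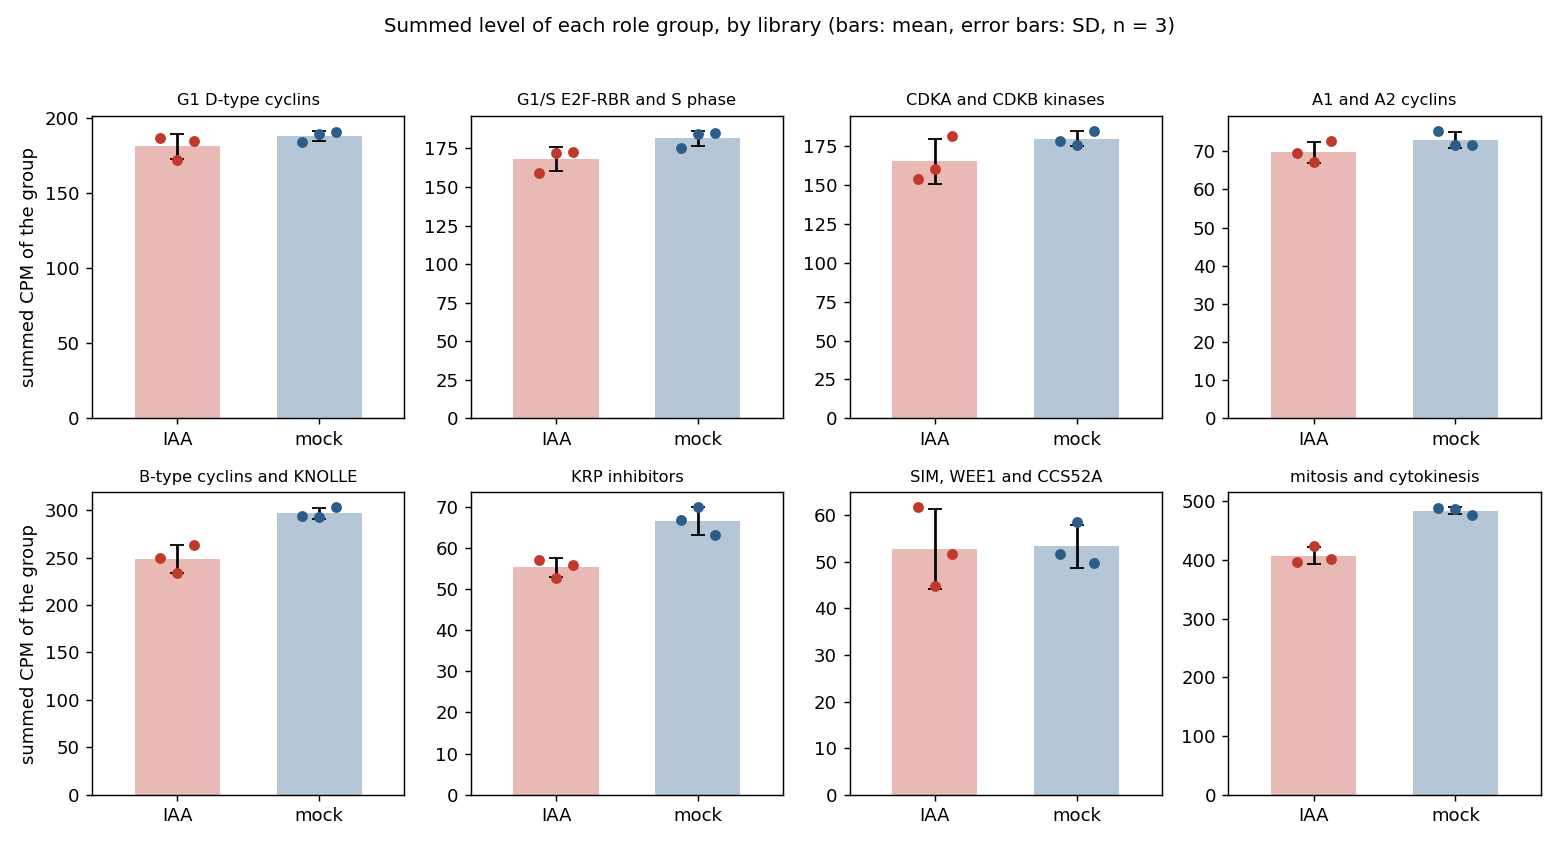
Summed CPM of each role group and of the mitosis and cytokinesis list in each library (points), with means (bars from 0) and SD (n = 3), IAA at the left and mock at the right. The IAA points lie wholly below the mock points for the B-type cyclins with KNOLLE, the KRP genes and the mitosis list, and for the E2F, RBR1 and S phase genes by a narrower margin.

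Other genes of mitosis and cytokinesis, none of them among the 46, also lay mostly below mock, 17 of 19 by their means. The 17 include MYB3R3, with a log2 change of -0.0002. The number below mock was 16 of 19 with RLE size factors and 15 without mock library 3. It was 15 with the green tissue share as a term and 14 without IAA library 1. In these fits the median log2 change ran from -0.27 to -0.24. Of 19 tested, 0 rose and 0 fell in edgeR and limma-voom, 0 were higher and 10 lower with no adjustment (p under 0.05), and DESeq2 called CDC20.1 lower (adjusted p = 0.0211). In 11 of 19 (57.9%) the IAA libraries lay wholly below the mock libraries, against 9.83% of all genes, and the median log2 change was -0.27. Of all genes 51.7% had a negative log2 change and 7.57% were lower with no adjustment (p under 0.05). DESeq2 called 2.49% of its genes lower. CDC20.1, an activator of the anaphase-promoting complex, stood at 44.5 ± 3.67 CPM in IAA roots and 59.7 ± 4.40 CPM in mock roots (SD, n = 3 each, edgeR adjusted p = 0.0676), and its close copy CDC20.2 may share reads with it. CCS52B had the largest change, -0.50 on the log2 scale, at 15.9 ± 0.255 CPM in IAA roots and 22.5 ± 3.79 CPM in mock roots (edgeR adjusted p = 0.101). The summed level was 397, 424 and 402 CPM in the IAA libraries, below the 489, 487 and 477 CPM of the mock libraries. The AACGG core was present in 15 of these 19 promoter windows. The MYB3R genes themselves, which encode the factors that bind it, had log2 changes between -0.07 and 0.24 and overlapping groups.

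KRP proteins bind and inhibit cyclin-dependent kinases, and all 7 KRP genes had a negative log2 change. Their median was -0.23 and 0 fell in edgeR. With no adjustment 2 of 7 were lower (p under 0.05), against 7.57% of all genes. DESeq2 called KRP2 alone, against 2.49% of all its genes called lower, and limma-voom called 0. In 1 of 7 (14.3%) each IAA library lay below each mock library, against 9.83% of all genes. A negative log2 change was found in 51.7% of all genes. KRP2 (AT3G50630, chromosome 3 from 18800306 to 18801595 in TAIR10.1) had 9.55, 6.14 and 6.74 CPM in the IAA libraries and 12.1, 14.5 and 11.5 CPM in the mock libraries. The groups did not overlap, with IAA library 1 nearest to mock. The log2 change was -0.77 (SE 0.20, 95% interval -1.22 to -0.31), the largest decrease of all 46 members, with an adjusted p = 0.0806 in edgeR. Without IAA library 1 edgeR called it lower, with a log2 change of -0.98 (adjusted p = 0.0125). In the authors' deposited table its log2 change was -0.77 with an adjusted p = 0.0157.

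KRP1 had a log2 change of nearly the same size, -0.75, on far fewer counts. It had 44, 34 and 25 counts in the IAA libraries and 67, 69 and 41 in the mock libraries, and IAA library 1 lay above mock library 3 in CPM (SE 0.30, edgeR adjusted p = 0.253). KRP7, at 41, 24 and 18 counts in IAA libraries and 28, 45 and 46 in mock libraries, overlapped widely. KRP3, KRP4, KRP5 and KRP6 had log2 changes between -0.23 and -0.10, and each overlapped between groups. KRP3 had 3.97 to 6.25 CPM in IAA libraries and 5.10 to 6.83 CPM in mock libraries. KRP5 had 5.07 to 6.43 CPM in IAA libraries and 5.97 to 6.89 CPM in mock libraries, with 2 of 3 IAA values below the mock range. KRP6 had 7.67 to 9.59 CPM in IAA libraries and 7.94 to 9.91 CPM in mock libraries, again with 2 of 3 IAA values below the mock range. KRP4, the most abundant, had 23.5, 26.2 and 27.5 CPM in IAA libraries and 28.6, 28.3 and 26.5 CPM in mock libraries, and it overlaps the opposite-strand gene CB5-B over 926 bases. The summed level of the 7 genes was 57.0, 52.8 and 55.9 CPM in the IAA libraries and 66.7, 69.9 and 63.0 CPM in the mock libraries, without overlap. Without the 3 libraries of high green tissue share 6 of the 7 were below mock, the exception being KRP3 with a log2 change of 0.00098.

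The promoter windows of KRP2 (chr3:18800056-18800355, plus strand) and CYCD1;1 (chr1:26439306-26439605, plus strand) are given because these were the 2 members that DESeq2 called. The auxin response elements TGTCTC and TGTCGG were searched on both strands in addition to AACGG, and the strings searched are not parts of each other.
KRP2: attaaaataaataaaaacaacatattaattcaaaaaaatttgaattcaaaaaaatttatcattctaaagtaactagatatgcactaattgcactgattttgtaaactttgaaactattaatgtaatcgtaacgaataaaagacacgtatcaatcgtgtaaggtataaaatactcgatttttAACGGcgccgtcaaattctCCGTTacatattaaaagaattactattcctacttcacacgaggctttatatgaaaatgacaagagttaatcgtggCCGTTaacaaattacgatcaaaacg
CYCD1;1: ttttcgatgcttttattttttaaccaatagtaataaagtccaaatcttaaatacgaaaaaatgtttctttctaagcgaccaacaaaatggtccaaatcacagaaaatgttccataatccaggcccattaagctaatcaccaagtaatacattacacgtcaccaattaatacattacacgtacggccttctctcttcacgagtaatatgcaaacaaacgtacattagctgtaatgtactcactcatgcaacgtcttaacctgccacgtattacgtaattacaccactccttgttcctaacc
Neither auxin response string is in these windows, and AACGG occurs 3 times in that of KRP2, at -69, -50 and 26, and not in that of CYCD1;1. TGTCTC is in 5 of 46 windows of the members and 14.2% of all windows, and TGTCGG is in 3 of 46 and 5.12%. The E2F strings TTTCCCGC, TTTCGCGC, TTTGCCGC and TTTGGCGC were found in 2 of 46 windows, those of CYCD3;3 and RBR1, and in 1.76% of all windows, while 9 of the 18 replication genes held one. AACGG was in 5 of 7 KRP windows.

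SIM and SMR1, founders of a second inhibitor family that steers cells into endoreduplication, were the inhibitors with positive changes. SIM had 13.1, 10.05 and 13.0 CPM in the IAA libraries and 9.99, 11.5 and 9.43 CPM in the mock libraries, and IAA library 2 lay inside the mock range (log2 change 0.23, 95% interval -0.13 to 0.58). SMR1 had 3.21, 1.93 and 3.00 CPM in IAA libraries and 2.16, 2.17 and 2.26 CPM in mock libraries, with 2 IAA values above the mock range and IAA library 2 below it (log2 change 0.31, 95% interval -0.28 to 0.89). WEE1, a kinase that halts the cycle after DNA damage, had 5.77, 6.52 and 7.62 CPM in IAA libraries and 8.68, 9.35 and 6.74 CPM in mock libraries, with IAA library 3 inside the mock range (log2 change -0.31). CCS52A1 and CCS52A2 had log2 changes of -0.06 and -0.04. CCS52A2 had 7.37, 6.47 and 6.74 CPM in the IAA libraries, all inside the mock range of 6.16 to 7.88 CPM. CCS52A1 was at 32.4 CPM in IAA library 1, above the mock values of 23.7, 27.8 and 25.1 CPM, and at 19.9 and 21.3 CPM in the other IAA libraries, below them. It was thus split within the IAA group, with an SD of 6.84 CPM in IAA roots and 2.05 CPM in mock roots.

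Levels were also set per length, as CPM per kb of merged exons, and the genes with the highest means came from several role groups. In IAA roots CDKA;1 stood at 39.1 ± 2.17, CYCA3;2 at 33.6 ± 2.61 and CDKB2;1 at 32.8 ± 4.24 CPM per kb, and in mock roots at 40.5 ± 2.27, 36.9 ± 3.49 and 38.0 ± 1.36 CPM per kb (SD, n = 3 each). In mock roots these 3 genes overlapped in their library values, and in IAA roots CYCA3;2 and CDKB2;1 overlapped while each CDKA;1 value lay above them. KNOLLE followed in mock roots at 33.2 ± 4.57 CPM per kb, while in IAA roots CYCD3;2 stood at 29.9 ± 3.59 and KNOLLE at 29.4 ± 3.94 CPM per kb. Within the D-type class CYCD2;1 and CYCD3;2 were the most abundant and CYCD6;1 the least, at 0.558 ± 0.119 CPM per kb in IAA roots and 0.383 ± 0.0563 in mock roots. Of the inhibitors SIM had the highest mean per length in both groups, 15.2 ± 2.18 CPM per kb in IAA roots and 13.0 ± 1.33 in mock roots, followed by KRP4 at 10.8 ± 0.866 in IAA roots and 11.6 ± 0.472 in mock roots. KRP2 stood at 6.61 ± 1.61 CPM per kb in IAA roots and 11.3 ± 1.38 in mock roots.

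**Figure D5:**
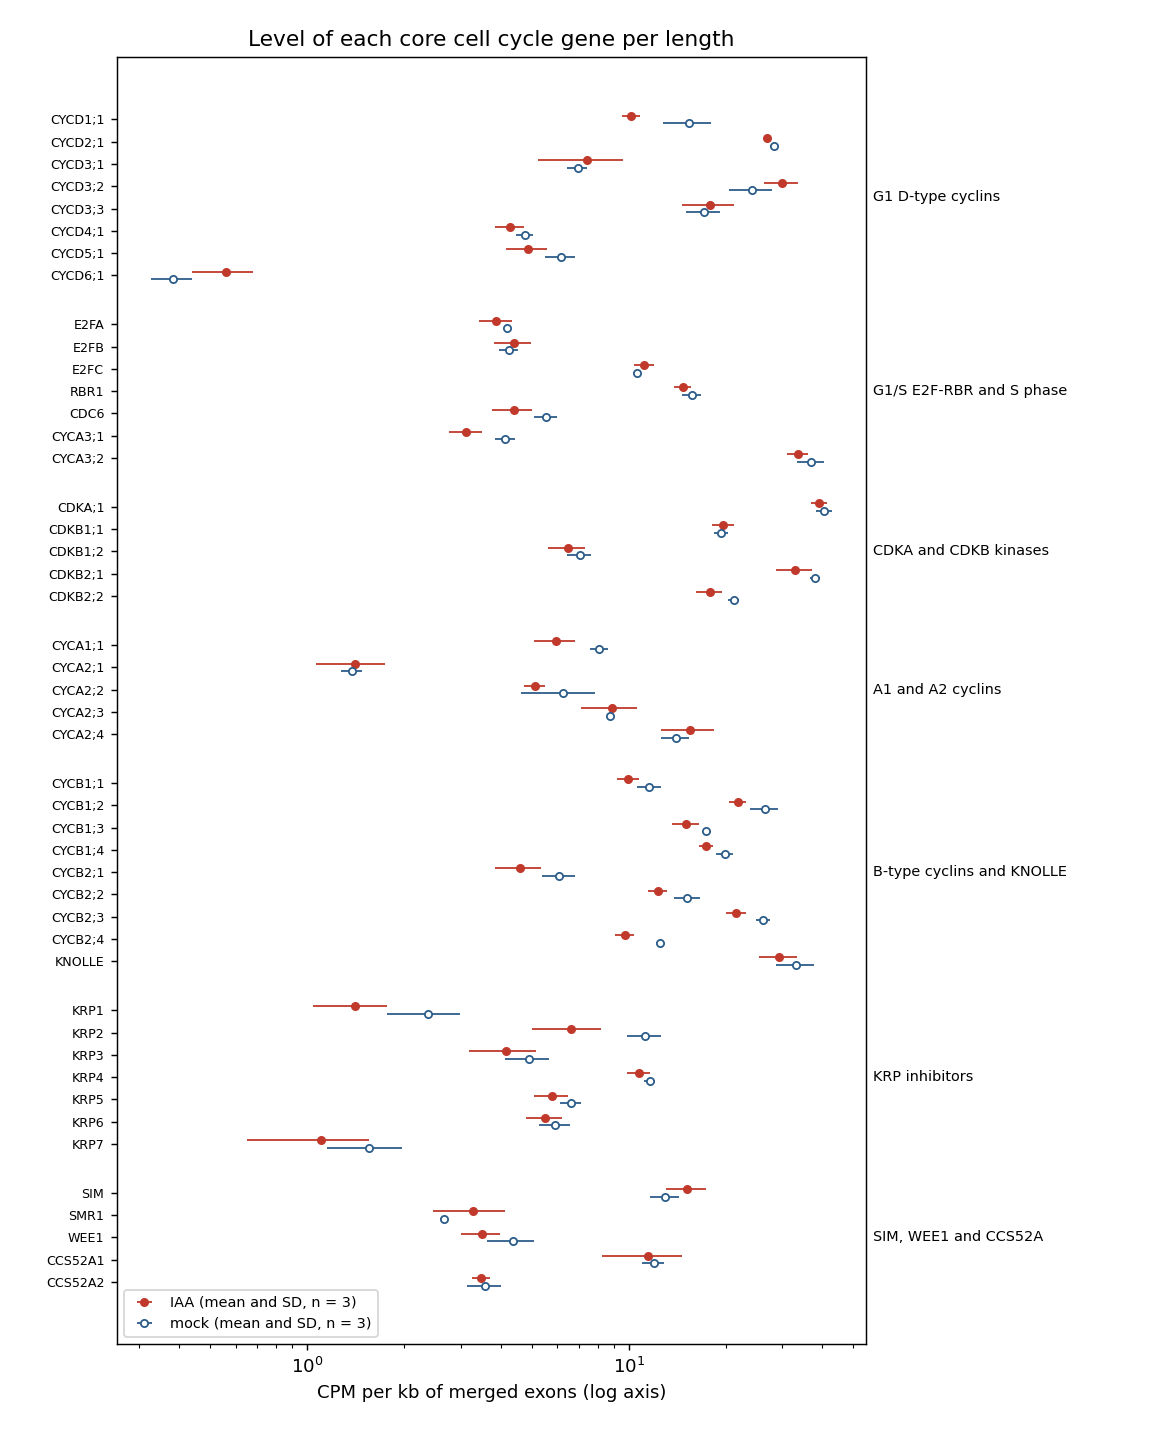
Mean level of each core cell cycle gene in CPM per kb of merged exons on a log axis, with SD over 3 libraries, IAA as filled points set just above mock as open points, by role group. CDKA;1, CYCA3;2 and CDKB2;1 lie at the right edge and CYCD6;1 at the left.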

How the data were processed

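Per the labels' protocols, total RNA was ribodepleted and sequenced in paired-end mode. The authors deposited whole-number read counts for each gene and library. Per the labels, each library contains 2 technical replicates. Per the submitters' processing notes, STAR 2.5.2b and DESeq2 1.26.0 were used with TAIR10. For the counting tool and its strand setting, the sources used here give nothing. The deposited comparison table gives, per the file headers, a mean normalized signal, log2 fold changes with errors on the log2 scale, a Wald score, and p-values with adjusted p-values. Its log2 values differed from those of DESeq2 1.42.0, run here, by less than 1e-06 for each member.

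Counts were tested in edgeR 4.0.16 (R 4.3.3, with glmQLFit and glmQLFTest, robust, TMM, filterByExpr, group as the only term) over 19778 genes, with a Benjamini-Hochberg adjusted p under 0.05 and no fold minimum, after the code was tested on simulated data. Alternatives used limma 3.58.1 and DESeq2. Standard errors are the log2 change divided by the square root of F, and 95% intervals use them with the t distribution. CPM is per TMM-scaled total of the tested genes. No 2 libraries of a group agreed within sampling noise (chi-square per gene 13.3 to 41.3).

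Members, role groups and further lists were chosen with earlier results of these data known. Values were given for members called by any of the 3 tools and, in each role group, for the 2 most abundant and the most changed. Members beyond this rule, and most values of the B-type and KRP groups, were named after their values were seen. Symbols, positions, lengths and promoter windows come from RefSeq TAIR10.1, matched by locus for 46 of 46 members. In 44 members each 100-base exon window occurs once in the nuclear chromosomes. The exceptions are CYCB2;3, with 92.8% of its windows occurring once, and CYCB1;2, with 99.9%. Another gene of the opposite strand overlaps 15 members.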

Additional observations from a re-analysis of the deposited data

How the results depend on the processing

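Across 15 alternatives, 689 values of the 46 members were recomputed: 662 kept direction and side of the threshold, 4 passed it, and 23, in 10 members, changed sign, with adjusted p of at least 0.507. Those that passed were CYCD1;1 (-0.60 with DESeq2, -0.72 without mock 3) and KRP2 (-0.77 with DESeq2, -0.98 without IAA 1). The count of members called lower was 2 with DESeq2 and 0 to 1 with 1 library left out, and 0 under the remaining alternatives, and 0 were called higher under any. Sign changes were, with library totals, CDKB1;1 (-0.0038) and CYCA2;3 (-0.0046). CYCA2;3 also changed sign with limma-voom (-0.0019), the replicate block (-0.0022) and the green tissue share as a term (-0.072). With that term CYCD3;3 (-0.073) and CYCA2;1 (-0.12) changed sign, and without the 3 libraries of high share CDKA;1 (0.033) and KRP3 (0.00098) did. With 1 library left out the ranges spanned 0 for CYCD3;1 (-0.13 to 0.30), CYCD3;3 (-0.082 to 0.18), E2FB (-0.051 to 0.14), CDKB1;1 (-0.040 to 0.066), CYCA2;1 (-0.17 to 0.19), CYCA2;3 (-0.16 to 0.12), CCS52A1 (-0.31 to 0.074) and CCS52A2 (-0.13 to 0.057). A further 38 members kept their sign with any 1 library left out, and 19 of these moved by over 1.5 times, 0 of them called in such a fit. The strict filter removed CYCD6;1, which has no value there.

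Over all genes, 641 were called higher and 196 lower. DESeq2 called 1087 and 552, and the green tissue share as a term 403 and 110. Without the 3 libraries of high share 0 and 0 were called, with 3 libraries left. With 1 library left out the counts ran from 260 to 839 higher and from 47 to 433 lower: 326 and 48 without IAA 2, 433 lower without IAA 1, 95 lower without IAA 3, 260 and 47 without mock 1, and 370 higher without mock 2. The cause of these differences was not tested. The alternatives that use the green tissue share were chosen after seeing the data. Same-numbered libraries did not pair (correlations of their deviations 0.14, -0.44 and 0.23, and IAA 1 correlated best with mock 2), and with the replicate block 0 members, 462 genes higher and 149 lower were called. Depth limited CYCD6;1, with 14 to 22 counts in IAA and 12 to 15 in mock libraries, whose interval reached past a 2-fold change.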

Other observations

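Markers of several root cell types, both of the stem cell niche and of differentiated cells, had means above mock in IAA roots, 8 of 8 in all. WOX5, the gene of the quiescent centre that keeps its neighbours undifferentiated, rose to 16.3 ± 2.42 CPM in IAA roots, against 8.59 ± 1.52 CPM in mock roots (SD, n = 3 each, log2 change 0.93, edgeR adjusted p = 0.0272), and its IAA libraries lay wholly above its mock libraries. It was the 1 call among 8 root markers in edgeR, against 3.24% of all genes called higher. With no adjustment 3 of 8 markers were higher (p under 0.05), against 9.88% of all genes. In 3 of 8 the IAA libraries lay wholly above mock, against 12.3% of all genes. A positive log2 change was found in 9556 of the 19778 genes tested. SCR, a factor of the endodermis and the niche, stood at 69.5 ± 5.49 CPM in IAA roots and 54.6 ± 1.07 CPM in mock roots without overlap (adjusted p = 0.0826 in edgeR, 0.0390 in DESeq2). COBL9, a root hair gene, stood at 44.6 ± 3.35 CPM in IAA roots and 37.2 ± 2.89 CPM in mock roots, also without overlap (SD, n = 3 each, log2 change 0.26, edgeR adjusted p = 0.249). PLT1 and PLT2, which maintain the meristem, had log2 changes of 0.29 and 0.47 and overlapping groups, with the highest values in IAA library 1. SHR, SMB and CASP1 had log2 changes of 0.16, 0.03 and 0.03.

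Further cyclins and regulators gave 0 calls in edgeR, DESeq2 or limma-voom, and 0 had p under 0.05 with no adjustment. Of 8 SIAMESE-related genes outside the core set 6 were tested, with log2 changes from -0.64 for SMR7 to 0.43 for SMR4 and overlapping groups. The log2 change was negative in 5 of these 6, with a median of -0.25, against 51.7% of all genes and a median of -0.01. Among 12 tested cyclins, kinases, kinase subunits and F-box genes outside the core set, the log2 changes ran from -0.20 to 0.37. SKP2A, an F-box gene known to bind auxin, had 117, 93 and 100 counts in IAA libraries and 92, 92 and 90 in mock libraries (edgeR adjusted p = 0.592). It was the 1 gene of these 12 whose IAA libraries lay wholly above mock in CPM, a pattern seen in 12.3% of all genes. DPA, a partner of E2F factors, and DEL3, an atypical E2F, lay wholly below mock (2 of 5, against 9.83% of all genes). The 5 DP and DEL genes had a median log2 change of 0.06.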
